A study of Mus musculus with 4 samples.

Results

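The killer cell lectin-like receptor genes and the Clec2 genes that lie among them were followed in 2 mouse germ cell lines. All non-control array probes were taken whose gene name began with Klra to Klrk and a number, with Klri, or with Clec2. These were 60 of 56605 probes, and 38 of 37009 gene names: 27 probes of 16 Klra genes (the Ly49 receptors), 24 probes of 15 other Klr genes and 9 probes of 7 Clec2 genes. The family was chosen by its known GC-2 against GC-1 values, so these values are given as a description and carry no test of their own.

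The study revisited the characteristics of both lines with 4 one-colour expression arrays, 2 for each line. GC-2 was made from mouse spermatocytes with SV40 large T antigen plus a p53 that is temperature-sensitive, and GC-1 from type B spermatogonia with large T antigen. Both are established lines, which were grown at 37 °C with 10% serum and harvested at 90% confluency, and neither received a treatment. The titles number the replicates without saying whether each was its own culture, and a p-value therefore covers only the spread among these samples, possibly a technical one. All 4 arrays lay on 1 slide with each line in a row of its own, so that line and slide position cannot be told apart.

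The Ly49 receptors are lectin-like proteins that natural killer cells carry at their surface and that bind class I histocompatibility molecules. Inhibitory members recruit phosphatases through their cytoplasmic tail, while activating members signal through the adaptors Tyrobp and Hcst. The Klrb1 receptors bind proteins of the Clec2 family, Klrk1 (NKG2D) binds stress-induced ligands, and Klrd1 (CD94) pairs with the Klrc chains. The number of Ly49 genes differs between mouse strains, many are near-identical, and the strain of the lines is not given in the labels.

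An array probe is a 60-base DNA oligonucleotide, and near-identical Ly49 genes can share much of it. Of the 351 pairs among the 27 Klra probes, 38 were alike when slid along each other without gaps over at least 20 bases, and 15 of the 27 probes stood in such a pair. The Klra4 probe and the probes that overlap it are shown because they hold 5 of the 11 Klra probes that were higher in GC-2 past the threshold used below. Each is written 5′ to 3′ in the sense of the transcript, and capitals mark the bases that differ from the Klra4 probe where the sequences overlap.
Klra4 (A_55_P2004536): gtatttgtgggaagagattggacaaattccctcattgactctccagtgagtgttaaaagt
Klra23 (A_55_P1998011): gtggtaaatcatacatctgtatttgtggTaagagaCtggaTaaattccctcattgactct
Klra15 (A_52_P514407): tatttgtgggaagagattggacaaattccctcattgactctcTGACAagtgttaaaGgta
Klra7 (A_55_P2004541): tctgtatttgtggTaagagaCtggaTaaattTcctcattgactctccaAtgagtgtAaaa
Klra6 (A_55_P2724404): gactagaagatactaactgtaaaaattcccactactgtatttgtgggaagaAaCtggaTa
Klra23 (A_55_P1997997): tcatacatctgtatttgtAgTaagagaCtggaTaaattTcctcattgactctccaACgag
Klra5 (A_52_P6758): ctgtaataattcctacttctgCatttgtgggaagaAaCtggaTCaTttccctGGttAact
Klra6 (A_55_P2004547): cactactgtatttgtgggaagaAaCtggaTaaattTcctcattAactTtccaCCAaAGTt
Klra17 (A_55_P2741047): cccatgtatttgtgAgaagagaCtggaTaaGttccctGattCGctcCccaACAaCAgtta

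The Klra15 probe in this set overlapped the Klra4 probe over 59 bases, of which 6 differed, and shared an unbroken run of 42 bases with it. The Klra7 probe overlapped over 57 bases with 6 differing, and its longest shared run was 16 bases. The Klra23 probes overlapped over 42 and 50 bases, with 3 and 7 differing. These 9 probes carry 7 gene names. A signal on any of them is given under the name of the probe, and which of the alike genes was transcribed was not tested.

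Likeness did not always go with detection, as 2 Klra8 probes show, and 1 Klra12 probe is printed below them for its listed targets. The Klra8 probes overlap over 46 bases, of which 1 differs, marked by the capital, and the scanner files place the first at chr6:130072149-130075080 on mm9, an interval longer than the probe.
Klra8 (A_55_P2742960): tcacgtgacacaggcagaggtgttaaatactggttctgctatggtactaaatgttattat
Klra8 (A_52_P98698): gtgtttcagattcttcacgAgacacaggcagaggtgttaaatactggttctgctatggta
Klra12 (A_55_P2167714): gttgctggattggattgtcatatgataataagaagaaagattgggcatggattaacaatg
The Klra8 probe named first was above background on both GC-2 arrays, and the one named second on no array. The Klra12 probe lists a Klra12 transcript and Klra4 transcripts among its targets in the scanner files. The Klra8 probe named first also lists Klra9 and Klra3 transcripts.

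On the arrays, a probe was counted as measured in a line where the scanner software marked it as well above background on both arrays of that line. Of the 60 probes, 20 were measured in GC-2 and 20 in GC-1, 12 of them in both, and 28 were above background on no array. The groups of genes differed in this. Of the 27 Klra probes, 15 were measured in GC-2 and 9 in GC-1, and 8 were measured in GC-2 and above background on no GC-1 array, a pattern shown by 1.93% of all probes. Several of these 8 probes are alike in sequence, so they need not be separate results. No Klra probe showed the opposite pattern, which 4.41% of all probes did. Of the 24 other Klr probes, 1 was measured in GC-2 and 5 in GC-1. Of the 9 Clec2 probes, 4 were measured in GC-2 and 6 in GC-1. Over all probes on the array, 56.6% were measured in GC-2 and 61.8% in GC-1, and 16913 of 56605 were above background on no array. Over all genes, 56.6% were measured in GC-2 and 63.0% in GC-1.

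Probes were compared by log2 processed signal minus the 75th percentile of the array, with limma over all 36692 tested probes and a Benjamini-Hochberg adjusted p under 0.05 as the threshold. Of the 28 member probes tested, 12 were higher in GC-2 past the threshold, where 24.1% of all tested probes were, and 3 were lower, where 21.6% of all were. By gene, 9 of the 20 tested were higher, against 20.2% of all tested genes, and 2 were lower, against 23.5%. The Klra genes made up 8 of the 9 higher genes and 1 of the 2 lower ones. Several of the higher Klra probes are alike in sequence, so the 8 names need not be separate results. The median difference over the tested member genes was 1.54 log2, and over all tested genes it was -0.037 log2. A member was tested only if it was measured in at least 1 line, so these counts leave out the 32 probes that were not.

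**Figure D1:**
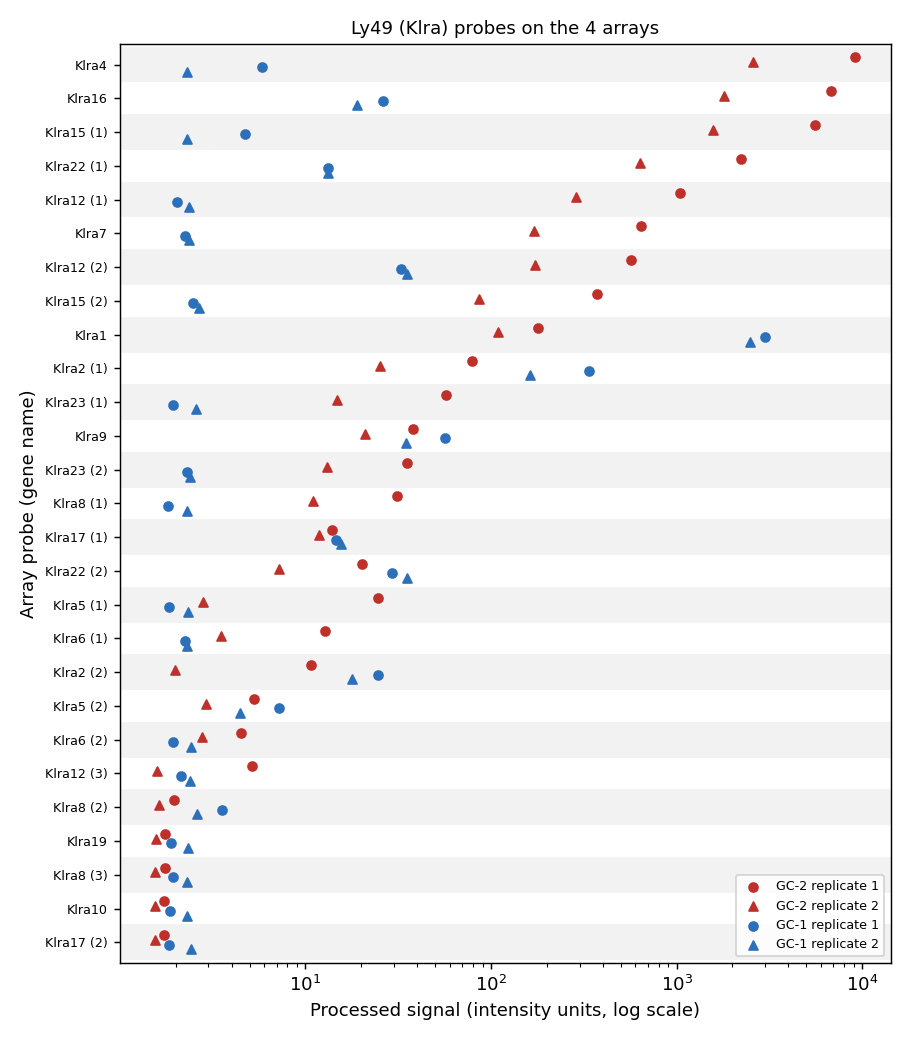
Processed signal of the 27 Klra probes on each array, on a log axis, with GC-2 in red and GC-1 in blue, circles for replicate 1 and triangles for replicate 2. Numbers in brackets separate the probes of a gene, and probes are sorted by their GC-2 signal for display only, since signals of different probes are not on 1 scale. The red symbols of Klra4 lie at 9204 and 2591 and the blue ones at 5.81 and 2.31, while Klra1 has its blue symbols to the right.

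Among the activating receptors, Klra4 (Ly49D, which signals through Tyrobp) stood far apart between the lines. Its probe, at chr6:129994035-129994094 on the minus strand of mm9, read 9204 and 2591 intensity units on the GC-2 arrays, against 5.81 and 2.31 for GC-1. No GC-1 array had it above background, and the difference was at least 1126-fold with the percentile scaling and at least 204-fold with scaling to the median of the E1A spike-in control probes. Such a bound sets the mean of the brighter line against the lowest signal that counted as well above background in the other line. The fitted difference of 11.62 ± 0.53 log2 (SE, n = 2 arrays per line) rests on GC-1 readings at background, and with normexp background correction it was 7.30 log2. Bounds below are with the percentile scaling unless stated.

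Klra16 (Ly49P, another activating receptor) read 6761 and 1805 in GC-2, against 26.2 and 18.9 in GC-1. It was above background on all 4 arrays, and the lines did not overlap, with a difference of 8.53 ± 0.38 log2. With normexp background correction the difference was 6.51 log2. Both GC-1 readings lay below the brightest non-mouse ERCC control probe of their array, at 74.2 and 65.5. The scanner files give the Klra16 probe no position. Its probe overlaps a Klra22 probe over 39 bases, of which 4 differ.

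Klra12 (Ly49L, activating) had 3 probes, which disagreed. The first, printed above, read 1045 and 287 in GC-2, against 2.02 and 2.37 in GC-1, a difference of at least 126-fold. The second also lists a Klra13-ps transcript and has no position. It read 565 and 172 in GC-2, against 32.6 and 35.1 in GC-1, a difference of 4.44 ± 0.30 log2. With normexp the difference was 3.01 log2, and the GC-1 readings lay below the brightest ERCC probe of their array. The third was above background on no array. Both detected probes were higher in GC-2, and only the first was at background in GC-1.

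Klra23 (Ly49W, an activating receptor described in NOD mice) had 2 alike probes. Its first probe read 57.5 and 14.7 in GC-2, against 1.94 and 2.58 in GC-1, a difference of at least 6.71-fold. The second read 35.3 and 13.1 in GC-2, against 2.29 and 2.37 in GC-1, at least 4.96-fold. Neither was above background on a GC-1 array. The second probe on both GC-2 arrays, and the first on replicate 2, lay below the brightest non-mouse ERCC control probe, which read 38.3 and 31.0 in GC-2.

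Klra8 (Ly49H, the activating receptor that recognises a protein of mouse cytomegalovirus) had 3 probes. The first read 31.1 and 10.9 in GC-2, against 1.82 and 2.29 in GC-1, a difference of at least 4.25-fold. The other probes were above background on no array, including the one that differs from the first by 1 base over their overlap. The detected probe lay below the brightest ERCC probe on both GC-2 arrays.

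Among the inhibitory receptors, Klra15 (Ly49O) had 2 probes. The first, aligned to the Klra4 probe above and without a position, read 5569 and 1564 in GC-2, against 4.71 and 2.31 in GC-1, at least 681-fold. The second, at chr6:129922274-129922333 on the minus strand, read 374.7 and 86.4 in GC-2, against 2.49 and 2.66 in GC-1, at least 41.5-fold. Neither was above background on a GC-1 array.

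Klra22 (Ly49V, which RefSeq now lists as a synonym of Klra1) had 2 probes on the same short stretch, within 159 bases that also hold the second Klra15 probe. Its first probe read 2230 and 633 in GC-2, against 13.3 and 13.2 in GC-1, a difference of 7.72 ± 0.32 log2. With normexp the difference was 5.14 log2, and the GC-1 readings lay below the brightest ERCC probe of their array. The second read 20.2 and 7.22 in GC-2, against 29.4 and 35.1 in GC-1, a difference of -0.18 ± 0.27 log2 that did not pass the threshold. So the 3 probes side by side gave a called difference, a bound and no call.

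Klra7 (Ly49G, inhibitory) read 640.5 and 169.8 in GC-2, against 2.25 and 2.35 in GC-1. It was above background on no GC-1 array, and the difference was at least 76.1-fold. Over the 8 Klra probes that were measured in GC-2 and on no GC-1 array, the bounds ran from 4.25-fold to 1126-fold. With the E1A scaling they were 204-fold for Klra4, 123-fold and 7.50-fold for Klra15, 22.8-fold for Klra12, 13.7-fold for Klra7 and 1.21-fold for the first Klra23 probe, and no bound above 1 was left for Klra8 and the second Klra23 probe. In GC-2, replicate 1 read 2.69 to 4.34 times as bright as replicate 2 on these 8 probes, where the 75th percentile of the array differed 2.08 times. After normalization replicate 1 stayed 1.29 to 2.08 times higher.

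Klra1 (Ly49A, inhibitory) ran the other way. Its probe, at chr6:130314070-130314129 on the minus strand, read 178 and 109 in GC-2, against 2977 and 2473 in GC-1, and was above background on all 4 arrays. The lines did not overlap, and the difference was -3.05 ± 0.27 log2. By the names in the scanner files, it was the only Klra gene that was lower in GC-2 past the threshold. RefSeq places the 2 Klra22 probes under Klra1 as well, and these gave 7.72 and -0.18 log2. Only the first 30 bases of the Klra1 probe are shown here, to set them beside the probes above.
Klra1 (A_55_P2004551), bases 1 to 30: tgcagtgcaaagagagagagagaaaatctg
The nearest other Klra probe to this stretch, a Klra22 probe, lay 7 edits away, and no Klra probe lay within 5 edits.

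**Figure D2:**
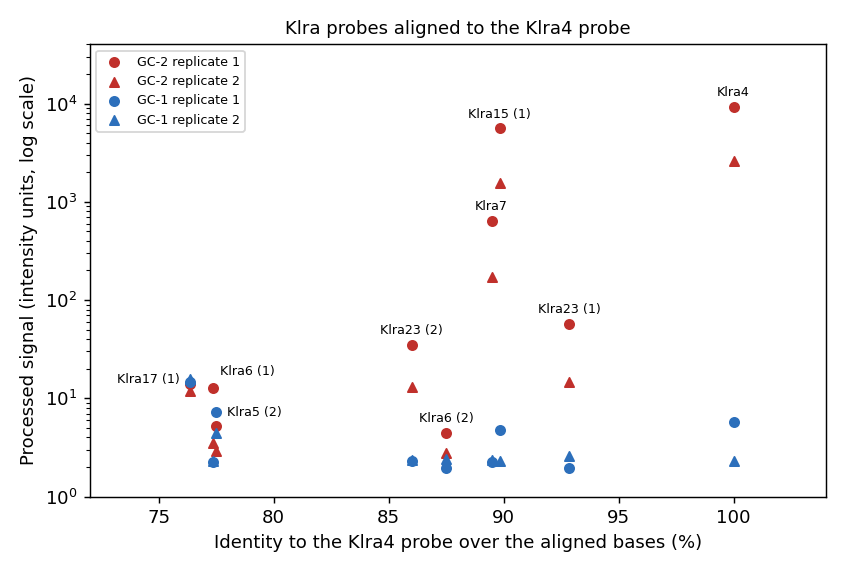
Processed signal of the 9 Klra probes that overlap the Klra4 probe (log axis) against their identity to it over the overlapping bases in percent, with GC-2 in red and GC-1 in blue, circles for replicate 1 and triangles for replicate 2. Signals of different probes are not on 1 scale, so the reading is within a probe: 5 of the 9 were above background on both GC-2 arrays and on no GC-1 array, 1 on a GC-2 array alone, 1 on all 4 arrays and 2 on none.

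The remaining Klra genes did not pass the threshold or were not measured. Klra9 (Ly49I, inhibitory) read 37.9 and 20.8 in GC-2, against 56.8 and 35.0 in GC-1, a difference of 0.57 ± 0.33 log2 that did not pass the threshold and turned to -1.90 with the E1A spike-in scaling. Klra17 (Ly49Q, carried by plasmacytoid dendritic cells) read 13.9 and 11.9 in GC-2, against 14.7 and 15.6 in GC-1 on its detected probe, a difference of 1.00 ± 0.34 log2 that did not pass. It passed as higher with normexp (1.12), with all 4 arrays above background (1.00), without GC-2 replicate 1 (1.42) and with the replicate block (1.00), and turned to -1.47 with the E1A scaling. The raw readings of both genes lay near each other in the lines, on GC-2 arrays whose 75th percentile was lower.

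Klra2 (Ly49B, found on myeloid cells) read 79.0 and 25.1 in GC-2, against 337 and 162.5 in GC-1 on its first probe, a difference of -1.16 ± 0.44 log2 that did not pass the threshold. This probe passed as lower with the replicate block (-1.16), median scaling (-1.47), the E1A scaling (-3.63) and without GC-1 replicate 2 (-1.71). Its second probe read 10.8 and 1.99 in GC-2, against 24.6 and 17.9 in GC-1, -0.95 ± 0.50 log2, also short of the threshold, and passed without GC-2 replicate 1 (-1.64) and with the E1A scaling (-3.41), while with normexp it turned to 0.83. Klra5 (Ly49E) and Klra6 (Ly49F) were each above background on 1 GC-2 array alone. Klra5 read 24.6 and 2.81 in GC-2, against 1.84 and 2.32 in GC-1 on that probe. Its second probe was above background on no array, at 5.26 and 2.90 in GC-2 and 7.21 and 4.45 in GC-1. Klra6 read 12.8 and 3.50 in GC-2, against 2.25 and 2.29 in GC-1 on that probe, and its second probe was above background on no array. Klra10 and Klra19 were above background on no array.

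**Figure D3:**
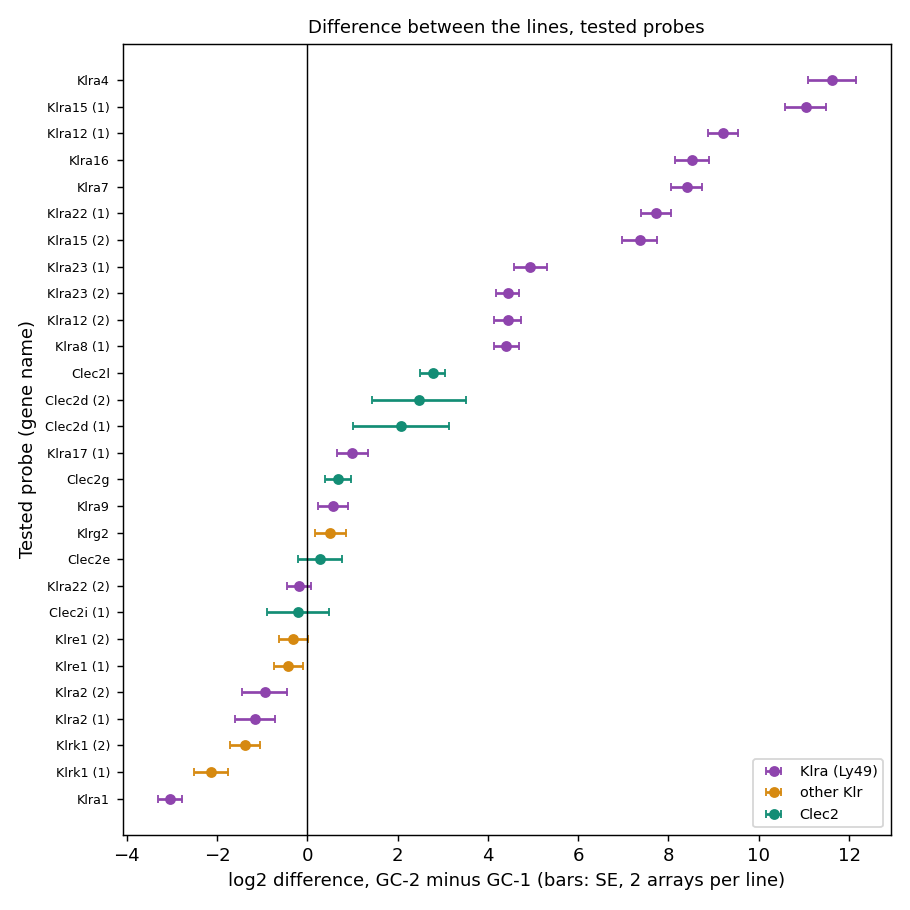
Difference in log2 signal, GC-2 minus GC-1, for the 28 tested member probes, with bars of 1 SE (2 arrays per line) and colours for the Klra, other Klr and Clec2 genes. The Klra probes span the whole range, with Klra4 at 11.62 and Klra1 at -3.05, and the other Klr probes lie near or below 0. Where a probe was at background in a line, the point depends on background readings there.

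The promoters of the Klra genes were compared by gene name, although which of the alike genes was transcribed was not tested. RefSeq (GRCm38.p6) gave 32 promoters of member genes, 12 of them of 10 Klra names. Klra8 and Klra7 had 2 promoters each. Over the same window the Klra4 promoter was 84.6% and 52.9% identical to those of Klra8 and 74.4% and 50% to those of Klra7. It was 79.5% identical to that of Klra17, 71.5% to that of Klra2 and 50.5% to that of Klra1. The 2 Klra8 windows overlap, so their unlike values depend on where the window starts. Outside the Klra genes identity ran from 44.8% (Clec2l) to 54.0% (Klrc1), a range that holds the values of 50%, 50.5% and 52.9%. For Klra5 it was 67.7%, for Klra6 60.3%, for Klra10 52.7% and for Klra9 50.7%. The names Klra12, Klra15, Klra16, Klra22 and Klra23 had no promoter among these. Whether identity to the Klra4 promoter goes with the differences was not tested. The 250 bases before the start of Klra4 (chr6:130067272-130067521) and of Klra1 (chr6:130386875-130387124), both on the minus strand, are shown because these genes lay at the opposite ends of the differences.
Klra4 promoter: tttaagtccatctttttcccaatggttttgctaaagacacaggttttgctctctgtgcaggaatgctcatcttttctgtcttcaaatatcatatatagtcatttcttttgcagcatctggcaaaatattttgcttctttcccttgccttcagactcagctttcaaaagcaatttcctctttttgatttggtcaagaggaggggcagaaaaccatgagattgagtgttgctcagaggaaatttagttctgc
Klra1 promoter: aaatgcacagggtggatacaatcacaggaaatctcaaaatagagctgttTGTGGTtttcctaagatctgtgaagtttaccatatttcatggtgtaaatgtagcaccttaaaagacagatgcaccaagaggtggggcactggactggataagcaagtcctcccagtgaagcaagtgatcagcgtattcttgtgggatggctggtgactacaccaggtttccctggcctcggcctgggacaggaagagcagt
Capitals mark the motif TGTGGT, to which RUNX factors bind. Searched on both strands, it stood in 1 of the 12 Klra promoters, that of Klra1, and in 14.1% of all 32851 promoters. TATAAA stood in 7 of the 12, counting both of the overlapping Klra8 windows, and in 12.4% of all. CTTTGA stood in 3 of the 12 and in 13.8% of all, and in the printed sequences no motif overlaps another. The Klra4 window held none of the 3, which says nothing about the factors.

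**Figure D4:**
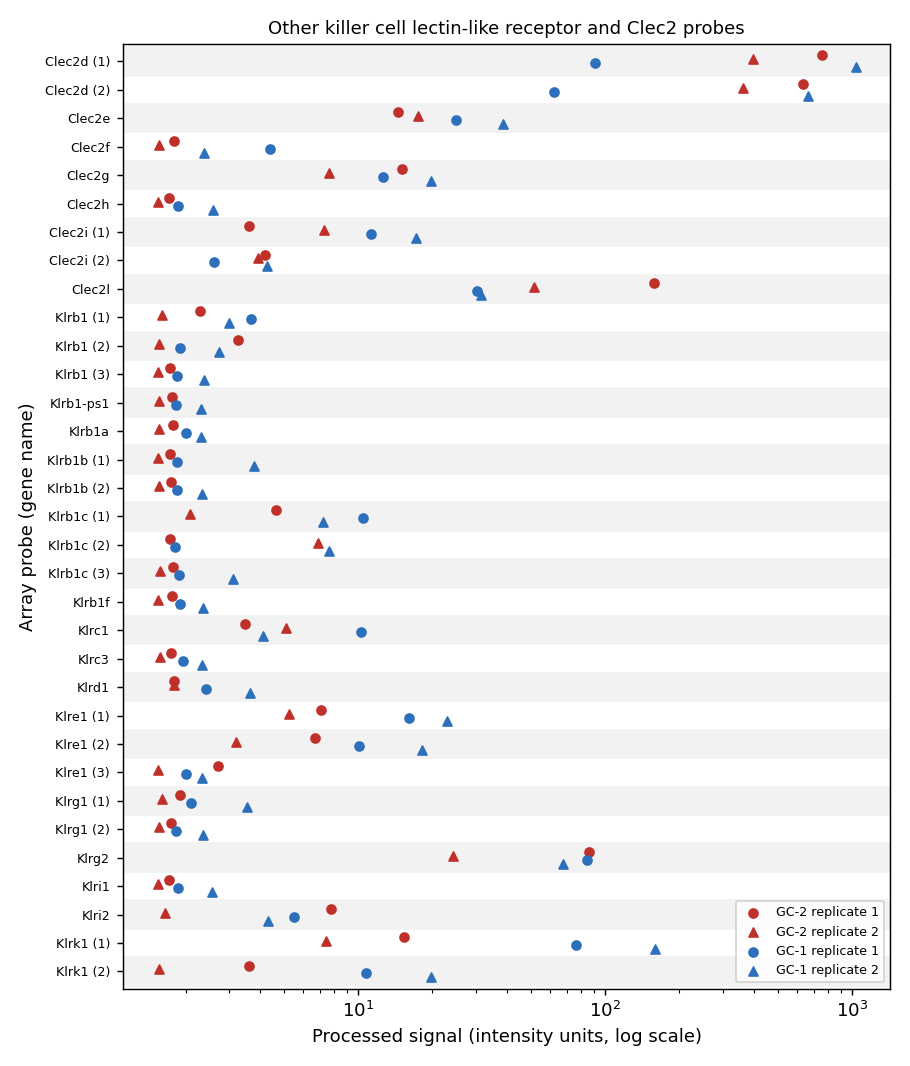
Processed signal of the 24 other Klr probes and the 9 Clec2 probes on each array, on a log axis, with GC-2 in red and GC-1 in blue, circles for replicate 1 and triangles for replicate 2. Most rows lie at background on all 4 arrays, and the GC-1 circles of both Clec2d probes lie to the left of the other 3 symbols.

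Of the other receptors, Klrk1 (NKG2D, which pairs with Hcst) was measured in GC-1 and not in GC-2. Its first probe read 15.4 and 7.40 in GC-2, against 76.6 and 159.5 in GC-1, a difference of -2.14 ± 0.38 log2, and its second 3.61 and 1.57 in GC-2, against 10.8 and 19.7 in GC-1, a difference of -1.38 ± 0.34 log2. Both were lower in GC-2 past the threshold, but with normexp background correction the first was -0.14, which lost the call, and the second turned to 0.87. The second was above background on no GC-2 array. It also lost its call without GC-2 replicate 1 (-1.45), without GC-2 replicate 2 (-1.30) and without GC-1 replicate 2 (-0.97).

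Klrg2 read 86.1 and 24.3 in GC-2, against 84.3 and 67.5 in GC-1, a difference of 0.51 ± 0.34 log2 that did not pass and turned to -1.95 with the E1A scaling. Klre1, a receptor that pairs with Klri1 or Klri2, read 7.09 and 5.26 in GC-2, against 16.1 and 22.9 in GC-1 on its first probe, -0.42 ± 0.32 log2, which did not pass. Its second read 6.71 and 3.21 in GC-2, against 10.0 and 18.2 in GC-1, -0.31 ± 0.33 log2. Both detected probes were above background on no GC-2 array. Klrb1c (NK1.1) and Klrc1 (NKG2A) were each above background on 1 GC-1 array alone. Klrb1c read 4.65 and 2.08 in GC-2, against 10.5 and 7.20 in GC-1 on that probe, and Klrc1 3.47 and 5.10 in GC-2, against 10.3 and 4.10 in GC-1. Klrb1, Klrb1a, Klrb1b, Klrb1f, Klrb1-ps1, Klrc3, Klrd1, Klrg1, Klri1 and Klri2 were above background on no array.

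Of the Clec2 genes, Clec2d (a ligand of the inhibitory receptor Klrb1b) was split within GC-1. Its first probe read 753.5 and 397 in GC-2, against 91.0 and 1035 in GC-1, and its second 632 and 363 in GC-2, against 62.3 and 662.5 in GC-1. The GC-1 arrays lay 10.9-fold and 10.2-fold apart on these probes, a gap larger than that of 99.97% and 99.96% of 30314 probes above background on all 4 arrays. Both probes, which share 20 bases, showed the split. The line difference, 2.07 ± 1.07 log2 on the first probe, did not pass the threshold. Without GC-1 replicate 1 it was 0.34 log2, and without GC-1 replicate 2 it was 3.80 log2 and passed. With the E1A scaling it turned to -0.40. The second probe, at 2.47 log2, did not pass either, but passed with normexp (1.91), the replicate block (2.47) and without GC-1 replicate 2 (4.15), was 0.80 without GC-1 replicate 1 and 0.0058 with the E1A scaling.

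Clec2l, a relative found in brain, read 157 and 51.8 in GC-2, against 30.3 and 31.4 in GC-1, a difference of 2.78 ± 0.28 log2. It was higher in GC-2 past the threshold, but with the E1A scaling it was 0.32 and lost the call. With normexp the difference was 1.85 log2, and the GC-1 readings lay below the brightest ERCC probe of their array. Clec2e read 14.5 and 17.4 in GC-2, against 24.8 and 38.7 in GC-1, 0.28 ± 0.49 log2, which did not pass and turned to -0.028 with quantile normalization, -0.041 with median scaling and -2.19 with the E1A scaling. Clec2g, a ligand of Klrb1f, read 15.1 and 7.59 in GC-2, against 12.6 and 19.6 in GC-1, 0.68 ± 0.29 log2, which did not pass and turned to -1.79 with the E1A scaling. Clec2i read 3.60 and 7.27 in GC-2, against 11.3 and 17.1 in GC-1 on its first probe, -0.20 ± 0.68 log2, which did not pass. That probe was above background on no GC-2 array, and the second Clec2i probe on no array. Clec2f and Clec2h were above background on no array.

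The other genes of the same stretch of chromosome were read next. Between the Klrb1a probe and the last Klra2 probe, at chr6:128568515-131170242 on mm9 (2.60 Mb), lay 54 other probes, of which 15 were tested. The 54 included 2 probes of Klrh1 and 1 of Clec2m, which RefSeq counts in these families under names the scanner files do not use, and these 3 were above background on no array. By limma none was higher in GC-2 past the threshold (2 were at an unadjusted p under 0.05) and 6 were lower, where 24.1% and 21.6% of all tested probes were, and 5 were measured in GC-1 and above background on no GC-2 array. Olr1, a scavenger receptor of the C-type lectin family, read 4.18 and 1.55 in GC-2, against 9239 and 6192 in GC-1, and was lower in GC-2 by at least 392-fold. Clec7a (dectin-1) read 1.75 and 1.57 in GC-2, against 264.6 and 96.3 in GC-1, lower by at least 8.28-fold. A second Clec7a probe was above background on no array, at 8.38 and 3.09 in GC-2 and 6.59 and 9.39 in GC-1. Gabarapl1, an autophagy gene, read 32192 and 10340 in GC-2, against 152902 and 139547 in GC-1 on its brighter probe, -1.77 ± 0.29 log2 (limma adjusted p = 0.00615). Tmem52b read 8.77 and 7.34 in GC-2, against 48.3 and 117.8 in GC-1, lower by at least 3.89-fold. The second Olr1 probe and a 1700101I11Rik probe (-1.10 ± 0.28 log2) were the other lower ones. The second probes of Gabarapl1 (-1.01 log2) and 1700101I11Rik (-1.02 log2) did not pass. Nor did probes of Clec12a, 2310001H17Rik, LOC102643255 and 3 non-coding intervals, or an unnamed probe. The naming was narrowed to this stretch after the values were seen.

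Genes that work with the receptors were read from lists, described here by counts with no test of the list. Over all tested genes, 20.2% were higher and 23.5% lower, and with the E1A scaling 2.995% were higher and 90.2% lower, so that counts near these shares say nothing particular of a list. Of 24 adaptor and proximal signalling genes, 18 were tested, of which 6 were higher and 3 lower in GC-2, with a median of 0.23 log2. With the E1A scaling 2 were higher and 14 lower. Tyrobp, the adaptor of activating Ly49 receptors, was above background on no array, at 1.91 and 1.57 in GC-2 and 2.22 and 2.36 in GC-1. Hcst read 1.80 and 3.65 in GC-2, against 61.1 and 71.9 in GC-1, lower by at least 3.44-fold (limma adjusted p = 0.0121), and with normexp background correction its difference turned to 0.042 log2. Cd247 read 398 and 398 in GC-2, against 63.9 and 88.4 in GC-1, 3.64 ± 0.41 log2, and Syk read 77.5 and 31.0 in GC-2, against 3.07 and 2.58 in GC-1, at least 11.3-fold higher. Plcg2 was lower, with 67.3 and 44.0 in GC-2, against 1529 and 1193 in GC-1, -3.40 ± 0.28 log2.

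Of 14 class I ligand and assembly genes, 13 were tested, of which 10 were higher and none lower in GC-2 by limma (0 lower at an unadjusted p under 0.05), with a median of 1.66 log2, and with the E1A scaling 0 were higher and 7 lower with a median of -0.81 log2. H2-D1, a ligand of several Ly49 receptors, read 69709 and 34772 in GC-2, against 18375 and 27175 in GC-1, 2.38 ± 0.26 log2 (limma adjusted p = 0.00221). H2-K1 differed by 0.86 ± 0.22 log2 and B2m, the shared light chain, by 0.79 ± 0.22 log2. With normexp they were at 0.66 and 0.56 log2 and lost their calls, and the raw readings of both overlapped between the lines. H2-K1 read 137573 and 60998 in GC-2, against 114102 and 123261 in GC-1. B2m read 98040 and 49958 in GC-2, against 88418 and 103358 in GC-1. With the E1A scaling H2-D1 turned to -0.092, H2-K1 to -1.60, B2m to -1.68 and H2-T23, the ligand of Klrd1 with Klrc chains, to -0.28, against 2.19 ± 0.21 log2 with the percentile scaling. H2-L (2.70 log2), H2-Q10 (2.98 log2) and H2-Q7 (2.51 log2) stayed above 0 with that scaling and lost their calls. The H2-L and H2-D1 probes lie close together, at chr17:35403191-35403250 and chr17:35403886-35403945. H2-L read 65063 and 30748 in GC-2, against 15842 and 16635 in GC-1, near the H2-D1 readings. Whether class I genes share probes was not tested, so the 10 higher genes need not be separate results. Of 8 NKG2D ligands tested, 1 was higher and 3 were lower. Raet1c read 1339 and 419 in GC-2, against 1.91 and 2.28 in GC-1, at least 173-fold higher. H60a had a difference of -1.72 ± 0.22 log2, H60b -1.74 ± 0.21 log2 and Ulbp1 -1.60 ± 0.22 log2, all lower in GC-2. With the E1A scaling 1 was higher and 7 were lower. Raet1d had no probe.

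Of 22 other C-type lectin genes, 7 were measured in GC-2 and 11 in GC-1, and of 13 tested 2 were higher and 4 lower in GC-2, or 2 and 11 with the E1A scaling. Besides Olr1 and Clec7a, the largest were Clec10a, lower by at least 5.59-fold, and Clec11a, a growth factor for blood precursors, higher by at least 4.17-fold (limma adjusted p = 0.0036 and 0.000287). With normexp the list had 3 higher and 2 lower, and the calls of Clec10a (-0.31 log2) and Clec7a (-0.84 log2) were lost. With the E1A scaling no bound above 1 was left for Clec11a. Cd69, an activation marker that lies among the Clec2 genes, was above background on no array.

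**Figure D5:**
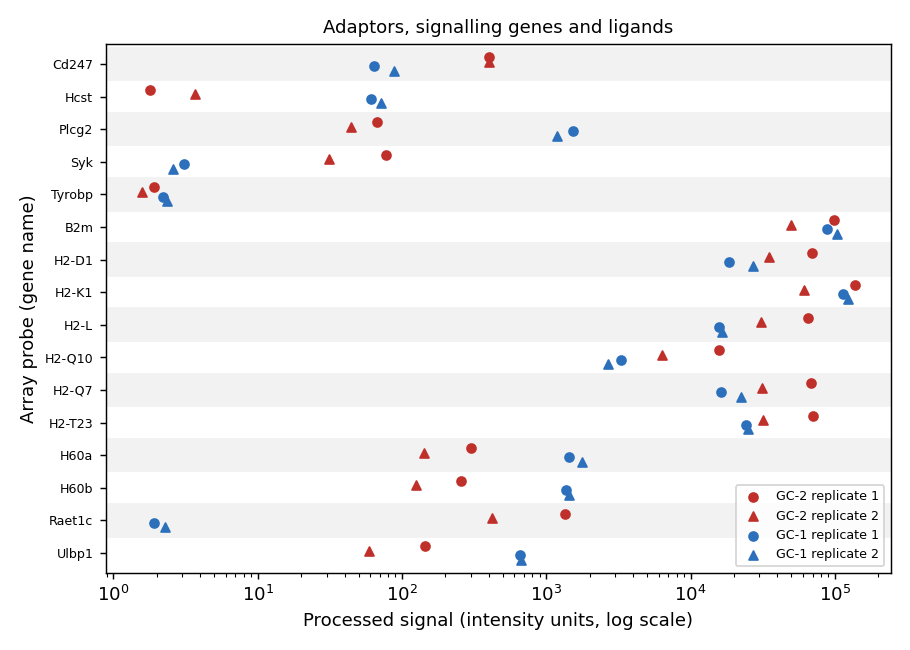
Processed signal of the named adaptor, signalling and ligand genes on each array, on a log axis, with GC-2 in red and GC-1 in blue, circles for replicate 1 and triangles for replicate 2. Tyrobp lies at background on all 4 arrays, and Raet1c at 1339 and 419 in GC-2 against background readings in GC-1.

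Markers of cells that normally carry these receptors were read on the same arrays. Of 22 natural killer cell markers, 10 were measured in GC-2 and 10 in GC-1, and 6 were above background on no array, among them Ncr1 at 1.74 and 1.56 in GC-2 and 1.87 and 2.61 in GC-1. The summed signal of all 22, each array divided by its 75th percentile, was 339 and 392 in GC-2, against 177 and 161.5 in GC-1, while the raw sums, 141199 and 78358 in GC-2 and 117696 and 111894 in GC-1, overlapped. Id2, the brightest marker named here, read 4137 and 1563 in GC-2, against 1860 and 1714 in GC-1. Most of each sum thus came from markers not named here, and the sums do not describe the list as a set. Of the 12 tested, 5 were higher and 1 was lower in GC-2, but with the E1A scaling 0 were higher and 9 lower. Id2 (1.75 ± 0.24 log2), Cd7 (1.59 ± 0.42 log2) and Styk1 (1.30 ± 0.26 log2) were among the higher ones and turned negative with that scaling, while Il18rap, higher by at least 3.86-fold, lost its call. Of 12 T cell markers, 5 were above background on no array, and the summed signal of all 12 over the 75th percentile was 2.47 and 3.67 in GC-2, against 1.70 and 1.57 in GC-1. Cd3e read 332 and 247 in GC-2, against 296 and 219 in GC-1. Its difference of 1.41 ± 0.32 log2, with those of Cd4 (1.00 ± 0.26 log2) and Cd8b1 (1.64 ± 0.31 log2), made up the 3 higher of 7 tested, and all 3 turned negative with the E1A scaling. No T cell marker was higher by limma without GC-1 replicate 1 or without GC-1 replicate 2, and 1 was higher without GC-2 replicate 2, as when the authors' log2 values were fitted. Of 18 leukocyte and myeloid markers, 8 were measured in GC-2 and 14 in GC-1, with a summed signal over the 75th percentile of 16.5 and 16.1 in GC-2, against 14.0 and 13.6 in GC-1, and raw sums of 6843 and 3227 in GC-2, against 9343 and 9448 in GC-1. Ptprc (CD45) has 7 probes, of which only the tested one of highest mean is given here. It read 1185 and 653 in GC-2, against 2350 and 2986 in GC-1, -0.35 ± 0.24 log2, which did not pass. Of 14 tested in this list, 3 were higher and 4 lower in GC-2, or 1 and 12 with the E1A scaling. Csf1r differed by 3.51 ± 0.24 log2, Coro1a by 3.01 ± 0.26 log2 and Itgb2 by -2.98 ± 0.25 log2, and S100a9 was lower by at least 3.64-fold. With normexp the list had 1 lower gene and S100a9 was at -0.011 log2, and with the E1A scaling Coro1a was at 0.54 log2 and lost its call and Csf1r was at 1.04 log2. Of 6 B cell markers, 3 were measured in GC-2 and 5 in GC-1, with a summed signal over the 75th percentile of 0.402 and 0.469 in GC-2, against 7.07 and 7.56 in GC-1. Blnk alone, at 4529 and 5046, made up most of the raw GC-1 sums of 4708 and 5239. Blnk, at -5.03 ± 0.23 log2, and Ms4a1, lower by at least 4.83-fold, were the 2 lower of 5 tested, and none was higher by limma, with 1 higher at an unadjusted p under 0.05. With normexp 1 was lower and Ms4a1 was at -0.15 log2, and with the E1A scaling all 5 were lower. The part of these markers in the Klra values was not tested. In RNA of whole cultures, fewer cells with a transcript and less RNA per cell cannot be told apart.

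The labelled cell type was checked with 8 germ cell genes. Zbtb16 was measured in GC-2, and Zbtb16, Ddx4 and Sohlh1 in GC-1. Zbtb16 read 18.8 and 10.2 in GC-2, against 26.3 and 30.9 in GC-1. In GC-1, Ddx4 read 12.9 and 12.7, and Sohlh1 read 12.9 and 19.99. All these readings lay below the brightest ERCC control probe of their array. That probe read 38.3 and 31.0 in GC-2, and 74.2 and 65.5 in GC-1. Whether such dim signals mark germ cell expression was not tested. Dazl and Kit were above background on no array, and Stra8, Sycp1 and Sycp3 on both arrays of neither line. GC-2 arrays had a 75th percentile of 416 and 199.9 intensity units, against 666 and 693 for GC-1 arrays, and no spot was saturated. The number of arrays limits the precision.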

How the data were processed

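RNA of 2 GC-2 and 2 GC-1 samples was labelled with Cy3 after oligo-dT priming, per the labels' protocols. Per the file headers, Agilent Feature Extraction 11.5.1.1 gave each spot a background-subtracted processed intensity, with probe positions on mm9. The authors also deposited a table of log2 values by gene name, used here as an alternative. Spots marked irregular (92 to 224 per array) were left out, spots of a probe were averaged, and the 75th percentile of the array was subtracted on the log2 scale. Testing required values on 4 arrays and, in 1 line or both, the flag for signal well above background on each array. GC-2 was set against GC-1 in limma 3.58.1 (R 4.3.3), and the tested probe of highest mean stood for its gene. Members keep the name in the scanner files. Other probes were named from RefSeq (GRCm38, names only): 32994 by accession, 10224 by symbol and 520 by synonym, while 12867 kept their name.

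The members and gene lists were chosen with earlier results of these data known. Named were all members above background on an array, up to 4 genes per list with the largest called change, a few fixed markers, and measured neighbours, narrowed to a stretch after the values were seen. The germ cell genes were added later. Protein identity between members was planned and not run, since no protein table was used here, and probe sequences were compared instead. Alternatives covered background correction, scaling, filters, detection, left-out replicates, the replicate block and the authors' table.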

Additional observations from a re-analysis of the deposited data

How the results depend on the processing

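The 11 Klra probes higher in GC-2 and the Klra1 probe kept their direction and side of the threshold under every setting that tested them. Klra4 lay between 7.30 and 12.31 log2 and Klra1 between -5.51 and -2.69 log2. Of the 11, 8 were above background on no GC-1 array, so their fitted differences rest on background readings in GC-1. These 8 passed the filter through GC-2 alone, and were not tested when all 4 arrays had to be above background. For Klra8 and the second Klra23 probe no bound above 1 was left with the E1A scaling. Scaling to the E1A spike-in moved the median of all genes to -2.51 log2, against -0.037, and median scaling moved it to -0.35 and normexp to 0.38. Higher calls were 3.21% of all gene calls with E1A and 32.1% with median scaling, against 46.2%. With normexp 1 member probe, 1 member gene and 8 list genes were lower, against 3, 2 and 17. Clec2i turned to 0.97, Klrk1 (second probe) to 0.87, Klre1 to 0.74 and 0.86, Klra2 (second probe) to 0.83 and Klra22 (second probe) to 0.78. With E1A 14 member probes, 10 member genes and 72 list genes were lower, and 6 list genes higher, against 30. Klrg2 turned to -1.95, Clec2d to -0.40, Clec2g to -1.79, Clec2e to -2.19, Klra9 to -1.90 and Klra17 to -1.47. Clec2e was -0.028 with quantile normalization and -0.041 with median scaling. Asking for all 4 arrays above background, which leaves fewer probes tested, gave 5 member probes and 5 member genes higher, 1 probe and 1 gene lower, 8 list genes lower, and 10 probes with the higher mean in GC-2, against 19. Without a filter that number was 50. The authors' table gave 1 lower member gene. Above the brightest ERCC probe, 9 member genes were measured in GC-2 and 5 in GC-1, against 16 and 15. Leaving out each replicate in turn gave 18 to 26 higher list genes, 18 without either GC-1 replicate. It moved Clec2i between -1.24 and 0.83 log2, Clec2e between -0.38 and 0.93, Klre1 (second probe) between -0.71 and 0.094 and Klra22 (second probe) between -0.39 and 0.034. A lone array of a line was assumed to vary like the others. The cause of these shifts was not tested.

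Same-numbered replicates correlated at 0.15 in their deviations over 30314 probes, and with only 2 pairs the numbers were not shown to pair the samples. With the replicate block 14 member probes were higher and 4 lower, 10 member genes higher and 3 lower, 31 list genes higher and 21 lower, and 19 tested member probes had the higher mean in GC-2. The series table gives no probe its own value, so that alternative was not run for probe levels.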
